A study of Mus musculus with 12 samples.

Results

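A set of 9 marker genes of the cells that line and supply the brain ventricles, 6 of ciliated ependymal cells and 3 of choroid plexus epithelium, was followed through 12 RNA-seq libraries of sorted mouse midbrain cells. The ependymal genes were Foxj1, Ccdc153, Rsph1, Dynlrb2, Tmem212 and Rarres2, and the choroid plexus genes were Ttr, Kcnj13 and Folr1. They were taken by gene symbol, and all 9 were found among the 24346 genes of the deposited tables. The mice were C57BL/6, and hKO1-positive cells, labelled only as neural cells in the sample descriptions, were sorted by FACS from micro-dissected midbrain. Synuclein groups had received preformed fibrils of G51D α-synuclein, a form linked to familial Parkinson's disease, by injection into the nigra on both sides (20 µg at 5 µg/µL), and saline groups had received saline. Each treatment was sampled after 12 and after 7 weeks, with 3 libraries in each of the 4 groups. Every group thus carried the hKO1 reporter and the injection, and the promoter driving hKO1, the age of the animals and whether a library pooled animals are not given in the sources used here.

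Ependymal cells form a sheet along the ventricles and the aqueduct of the midbrain, and their motile cilia beat to move cerebrospinal fluid. A motile cilium is built on an axoneme of microtubule doublets, moved by dynein arms and regulated by radial spokes, and the transcription factors FOXJ1 and RFX switch on many of its genes. Choroid plexus epithelium hangs in the ventricles and secretes the fluid together with carrier proteins such as transthyretin. Neither cell type is a dopaminergic neuron, the cell that the series set out to profile.

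The ependymal genes were low in most libraries and high in 2 of them, 1 from each treatment, both at 12 weeks. Synuclein replicate 1 at 12 weeks held 51.7% of the summed ependymal signal of all 12 libraries and saline replicate 2 at 12 weeks held 23.7%. The choroid plexus genes did not follow: Ttr was highest in the saline library, Folr1 in the synuclein library, and Kcnj13 was listed at 0 in the synuclein library. No ependymal or choroid plexus gene passed an adjusted p of 0.05 in any of 6 comparisons in edgeR, which is what called means here. That fit used all 12 libraries and a filter on low counts. For 12 against 7 weeks over both treatments, DESeq2 called Ccdc153, Tmem212 and Rarres2, and edgeR without the filter called Tmem212 and Rarres2. Some edgeR fits without 1 library also called ependymal genes there. DESeq2 called no member elsewhere, and limma-voom called none in any comparison. The ependymal difference between 12 and 7 weeks in the synuclein groups was carried by 1 library, synuclein replicate 1 at 12 weeks.

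Libraries held 2506730 to 5533324 assigned fragments. Synuclein replicate 2 at 12 weeks stood apart on the first principal component of all genes and synuclein replicate 1 at 12 weeks on the second. The former had fragments for 17409 genes, against 19960 to 21135 genes in the other libraries, though it held 5022491 assigned fragments. Whether this had a part in its zeros was not tested. Levels are CPM, counts relative to the library's TMM-scaled size, unless FPKM, which is per transcript length, is named. A listing of 0 allows up to 3 fragments, 0.590 to 1.11 CPM depending on the library, for counting error alone. In these bulk libraries fewer cells of a type and less RNA per cell cannot be told apart. Whether replicates came from different animals is not stated, so a p-value here reflects only how the libraries vary, which may be technical.

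Because the ependymal genes moved together, the start regions of 3 of them are shown, from RefSeq (GRCm38.p6, 250 bases before to 50 after the start), whose table matched 4 of the 9 members. Capitals mark GTTGCC, the half-site bound by RFX factors, searched on both strands. Ccdc153 lies on the plus strand (chr9:44240427-44240726), Dynlrb2 on the plus strand (chr8:116504765-116505064) and Tmem212 on the minus strand (chr3:27896319-27896618).
Ccdc153: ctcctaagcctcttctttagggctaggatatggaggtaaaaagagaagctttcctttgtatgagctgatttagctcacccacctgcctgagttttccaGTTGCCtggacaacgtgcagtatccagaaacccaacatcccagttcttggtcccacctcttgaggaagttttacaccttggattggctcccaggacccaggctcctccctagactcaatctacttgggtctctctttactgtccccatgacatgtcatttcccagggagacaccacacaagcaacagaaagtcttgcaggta
Dynlrb2: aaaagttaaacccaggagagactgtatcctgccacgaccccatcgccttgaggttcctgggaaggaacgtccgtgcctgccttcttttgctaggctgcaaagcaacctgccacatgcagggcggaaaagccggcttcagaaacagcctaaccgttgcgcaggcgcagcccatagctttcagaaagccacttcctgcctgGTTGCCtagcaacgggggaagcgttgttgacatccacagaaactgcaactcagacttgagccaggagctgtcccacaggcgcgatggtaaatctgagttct
Tmem212: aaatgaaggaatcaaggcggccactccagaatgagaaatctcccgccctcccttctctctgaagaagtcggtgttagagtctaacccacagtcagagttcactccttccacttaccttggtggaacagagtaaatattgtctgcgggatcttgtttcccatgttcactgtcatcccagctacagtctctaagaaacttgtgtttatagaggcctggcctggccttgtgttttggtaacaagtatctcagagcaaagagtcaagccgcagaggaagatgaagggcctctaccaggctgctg
GTTGCC stood at positions -152 to -147 from the start in Ccdc153 and at -51 to -46 in Dynlrb2, and was not found in Tmem212. Of 32851 mouse promoters of the same length, 12.5% held it. In Dynlrb2 it was followed after 1 base by NGNAAC, the second arm of an RFX X-box, and 0.892% of promoters held such a pair with 0 to 3 bases between. That pair was searched after the sequences had been seen. The forkhead motif GTAAACA, overlapping neither, was in none of the 3 windows and in 3.65% of promoters. The promoter of the choroid plexus gene Kcnj13, the other match, held none of these motifs. The matches describe letters only.

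Foxj1 encodes the forkhead factor that commits a cell to motile cilia. It had 12.4, 0 and 3.12 CPM in synuclein libraries at 12 weeks, against 6.67, 7.98 and 2.30 CPM in saline libraries at 12 weeks. At 7 weeks it had 0.87, 1.43 and 2.29 CPM in synuclein libraries, against 0.29, 2.02 and 1.15 CPM in saline libraries. The treatments overlapped at both times, and the highest library held 43 Foxj1 fragments. Saline libraries at 12 weeks all lay above saline libraries at 7 weeks, by a narrow margin.

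Rsph1 encodes a protein of the radial spoke head. It had 76.2, 0.27 and 6.52 CPM in synuclein libraries at 12 weeks, against 10.2, 24.8 and 9.19 CPM in saline libraries at 12 weeks. Its levels at 7 weeks were 3.47, 4.87 and 12.9 CPM in synuclein libraries, against 4.87, 0.87 and 1.43 CPM in saline libraries. The span within synuclein libraries at 12 weeks, 1 fragment in replicate 2 and 262 in replicate 1, covered every other value. Ccdc153, a coiled-coil gene of ciliated cells, had 68.3, 3.29 and 5.67 CPM in synuclein libraries at 12 weeks, against 8.70, 23.4 and 8.61 CPM in saline libraries at 12 weeks. At 7 weeks it had 3.18, 0.57 and 7.71 CPM in synuclein libraries, against 5.15, 2.31 and 1.43 CPM in saline libraries. Again the treatments overlapped, and replicate 1 of synuclein and replicate 2 of saline at 12 weeks were the highest.

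Dynlrb2 encodes a roadblock-type dynein light chain found in ciliated cells. It had 42.9, 0 and 0.85 CPM in synuclein libraries at 12 weeks, against 3.19, 34.5 and 5.46 CPM in saline libraries at 12 weeks. Its levels at 7 weeks were 4.05, 1.43 and 5.14 CPM in synuclein libraries, against 0, 3.46 and 1.15 CPM in saline libraries. Its paralogue Dynlrb1, a light chain of the cytoplasmic dynein of all cells, lay between 283 and 560 FPKM in every library, and Dynlrb2 between 0 and 139 FPKM. Dynlrb1 was at 344 FPKM in synuclein replicate 1 and 283 FPKM in saline replicate 2 at 12 weeks, within or at the low end of its range, so the ciliary paralogue was high there and the general one was not.

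Tmem212, a membrane protein used as an ependymal marker, was the most uneven member. It had 105.5, 0 and 0.85 CPM in synuclein libraries at 12 weeks, against 11.02, 52.7 and 6.89 CPM in saline libraries at 12 weeks. Levels at 7 weeks were 2.31, 0 and 2.86 CPM in synuclein libraries, against 0.86, 1.73 and 0.86 CPM in saline libraries. Of its 12-library sum, 85.2% lay in the 2 rich libraries. All 3 saline libraries at 12 weeks were above every library at 7 weeks, while 2 of the 3 synuclein libraries at 12 weeks were among the lowest of all.

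Rarres2 encodes chemerin, a secreted chemoattractant, and was the most abundant member at a mean of 63.4 FPKM. It had 217.2, 4.66 and 9.07 CPM in synuclein libraries at 12 weeks, against 20.0, 96.3 and 7.18 CPM in saline libraries at 12 weeks. At 7 weeks it had 1.74, 1.72 and 20.9 CPM in synuclein libraries, against 2.29, 4.33 and 2.30 CPM in saline libraries. The deposited locus of Rarres2 is shared with Lrrc61 on the opposite strand, with 328 exonic bases in common, and the counting is not stated to use strand, so their reads cannot be told apart there. Lrrc61 had 16.4 CPM in synuclein replicate 1 and 16.8 CPM in saline replicate 2 at 12 weeks, inside its range of 4.3 to 42.5 CPM elsewhere.

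**Figure D1:**
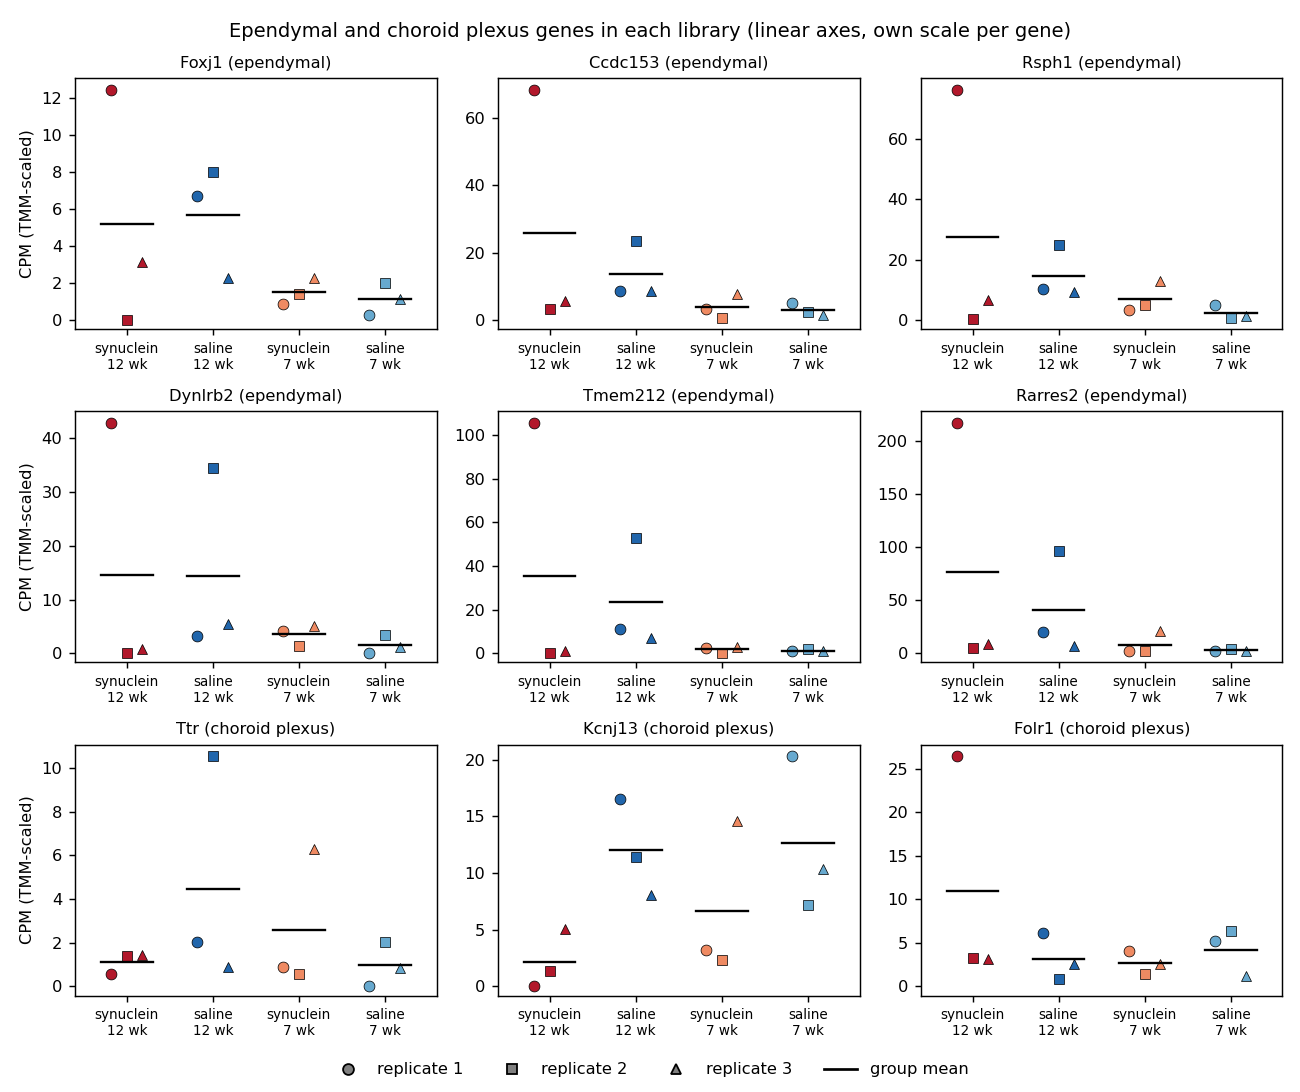
Level of each member (vertical axis, TMM-scaled CPM, linear, own scale per gene) in the 12 libraries by group; symbols give the replicate and the line is the mean of 3. Synuclein replicate 1 at 12 weeks is the highest point for all 6 ependymal genes and for Folr1, with saline replicate 2 at 12 weeks next for the ependymal genes.

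Summed over the 6 ependymal genes, synuclein libraries at 12 weeks had 522.4, 8.23 and 26.1 CPM, against 59.7, 239.6 and 39.6 CPM in saline libraries at 12 weeks. At 7 weeks the sums were 15.6, 10.02 and 51.7 CPM in synuclein libraries, against 13.5, 14.7 and 8.32 CPM in saline libraries. The 2 rich libraries differed 2.18-fold from each other, and the other 10 had a median of 15.2 CPM. All 6 genes were highest in synuclein replicate 1 and second highest in saline replicate 2. The 2 libraries together held 50.3% of the 12-library sum of Foxj1, 66.3% of Ccdc153, 64.9% of Rsph1, 75.8% of Dynlrb2 and 80.9% of Rarres2.

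The largest parts of the signal had similar shares in the 2 libraries. Rarres2 gave 41.6% of the ependymal sum in synuclein replicate 1 and 40.2% in saline replicate 2, and Tmem212 gave 20.2% and 22.0% in the same 2 libraries. Foxj1 was the smallest part, with 2.4% in synuclein replicate 1 and 3.3% in saline replicate 2. In the same order Dynlrb2 gave 8.2% and 14.4%, Rsph1 14.6% and 10.3%, and Ccdc153 13.1% and 9.8%. The Rarres2 share was not particular to these libraries, as it was 40.3% in synuclein replicate 3 at 7 weeks. The genes differed in how far they stood between the 2 libraries: Dynlrb2 was 1.24 times as high in synuclein replicate 1 as in saline replicate 2, and Rsph1 3.07 times.

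**Figure D2:**
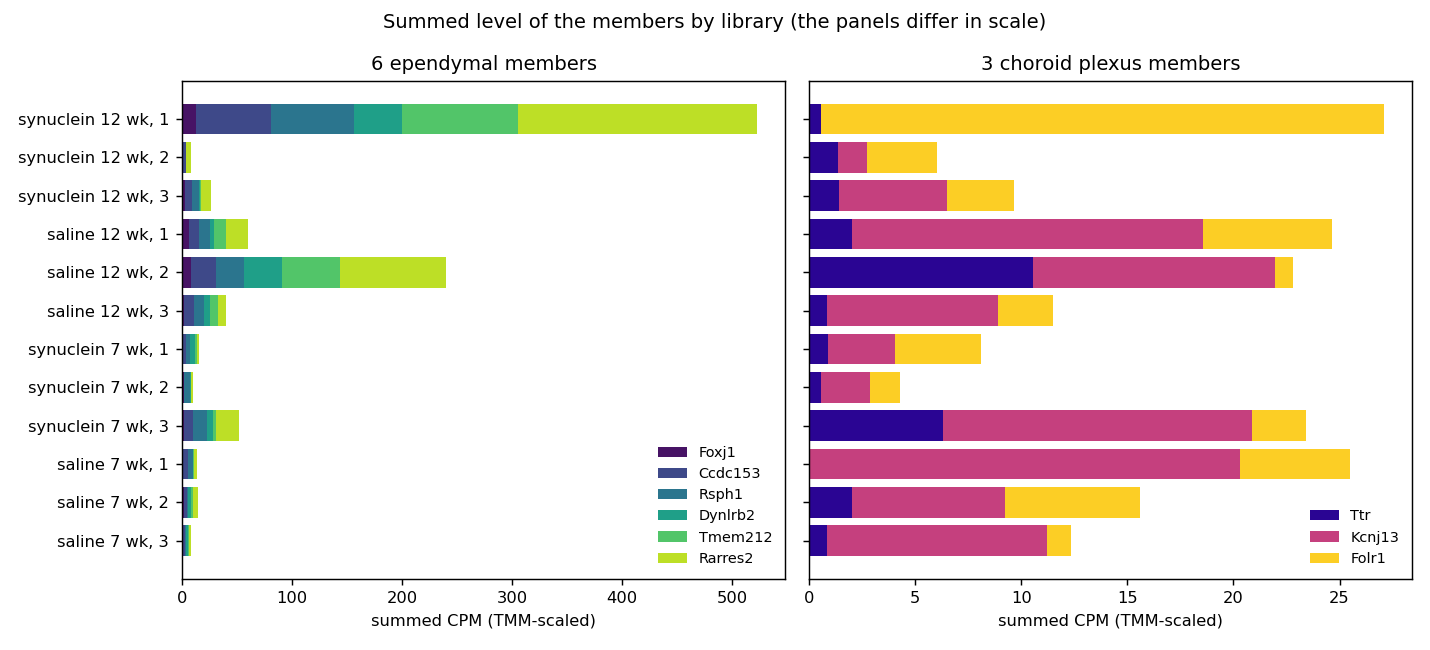
Summed level of the 6 ependymal genes (left) and the 3 choroid plexus genes (right) in each library (horizontal axes, TMM-scaled CPM, different scales), stacked by gene. The ependymal bars are long in synuclein replicate 1 (522.4 CPM) and saline replicate 2 (239.6 CPM) at 12 weeks, whereas the choroid plexus bars reach at most 27.1 CPM and are made of different genes from library to library.

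Ttr encodes transthyretin, the carrier of thyroxine and of the retinol-binding protein, and is known as one of the most abundant transcripts of choroid plexus. It had 0.56, 1.37 and 1.42 CPM in synuclein libraries at 12 weeks, against 2.03, 10.54 and 0.86 CPM in saline libraries at 12 weeks. Its levels at 7 weeks were 0.87, 0.57 and 6.29 CPM in synuclein libraries, against 0, 2.02 and 0.86 CPM in saline libraries. Its highest library, saline replicate 2 at 12 weeks, held 29 fragments and 10.2 FPKM, and synuclein replicate 1, the library richest in ependymal RNA, held 2. Ttr alone of the 9 members did not pass edgeR's filter on low counts, so its folds below come from the fit without that filter.

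Kcnj13 encodes Kir7.1, an inwardly rectifying potassium channel of the apical membrane of choroid plexus. It had 0, 1.37 and 5.10 CPM in synuclein libraries at 12 weeks, against 16.5, 11.4 and 8.04 CPM in saline libraries at 12 weeks. At 7 weeks it had 3.18, 2.29 and 14.6 CPM in synuclein libraries, against 20.3, 7.21 and 10.3 CPM in saline libraries. The treatments did not overlap at 12 weeks, where 6.67% of all genes were likewise lower in synuclein without overlap, and did at 7 weeks. The deposited locus of Kcnj13 lies within that of Gigyf2, a broadly expressed gene on the opposite strand, with no exonic bases shared, so their exonic reads fall on different bases. Unspliced Gigyf2 reads over Kcnj13 exons cannot be told apart from Kcnj13 without strand. Gigyf2 had 37.2, 117.1 and 61.8 CPM in synuclein libraries at 12 weeks, against 50.5, 93.5 and 57.1 CPM in saline libraries at 12 weeks, so it did not separate the treatments.

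Folr1 encodes the folate receptor through which choroid plexus passes folate to the fluid. It had 26.5, 3.29 and 3.12 CPM in synuclein libraries at 12 weeks, against 6.09, 0.85 and 2.58 CPM in saline libraries at 12 weeks. Its levels at 7 weeks were 4.05, 1.43 and 2.57 CPM in synuclein libraries, against 5.15, 6.35 and 1.15 CPM in saline libraries. Only synuclein replicate 1 at 12 weeks stood out, with 91 fragments and 42.0% of the 12-library sum, and saline replicate 2, the second library in ependymal RNA, was the lowest of all with 2 fragments.

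Of 47 other genes known from choroid plexus, 39 averaged under 10 FPKM over the 12 libraries and 8 more. The highest were Enpp2, Slco1c1 and Slc31a1, at means of 381 FPKM, 297 FPKM and 48.6 FPKM. Which cells made this RNA was not tested. Among the low ones, picked out after their values were seen, the water channel Aqp1 lay between 0 and 0.68 FPKM, the bicarbonate transporter Slc4a5 between 0.26 and 4.15 FPKM, and the choroid plexus regulator Otx2 between 0.88 and 7.98 FPKM. Kl, the klotho gene, lay between 0.09 and 2.69 FPKM. The choroid plexus members averaged 2.19 FPKM for Ttr, 7.03 FPKM for Kcnj13 and 4.45 FPKM for Folr1 over the 12 libraries. Even Ttr, a defining marker, was at most 10.2 FPKM in any library, so the 3 genes are called choroid plexus genes for where they are known from, not for cells shown to be present.

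Per transcript length, the members averaged 63.4 FPKM for Rarres2, 29.8 FPKM for Tmem212, 27.4 FPKM for Dynlrb2, 13.2 FPKM for Rsph1, 12.8 FPKM for Ccdc153 and 1.38 FPKM for Foxj1. The standard deviation over libraries exceeded the mean for each of these 6 genes, so this order over all libraries does not separate neighbours beyond their spread. In synuclein replicate 1 at 12 weeks the levels were 428 FPKM for Rarres2, 204 FPKM for Tmem212, 139 FPKM for Dynlrb2, 78.2 FPKM for Rsph1, 76.3 FPKM for Ccdc153 and 5.15 FPKM for Foxj1. The 6 genes stood in the same order in saline replicate 2 except that Dynlrb2, at 110 FPKM, was above Tmem212, at 101 FPKM, and Ccdc153, at 25.9 FPKM, above Rsph1, at 25.3 FPKM.

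Across the 12 libraries the log2 levels of the 15 pairs of ependymal genes correlated with Pearson's r between 0.72 and 0.92 and a median of 0.83. Spearman's rho lay between 0.57 and 0.89. All points share the library, its depth and its scaling, and the 2 rich libraries set much of the range. In the other 10 libraries r lay between 0.25 and 0.76, with a median of 0.61. The 3 pairs of choroid plexus genes had r between -0.49 and 0.29, and the 18 pairs of an ependymal and a choroid plexus gene had a median r of 0.29. In the other 10 libraries the choroid plexus pairs had r between 0.06 and 0.27, and the mixed pairs a median r of 0.42. Kcnj13 had r between -0.25 and -0.12 with the ependymal genes over 12 libraries, and between 0.21 and 0.61 in the other 10, so its sign turned with the 2 rich libraries.

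**Figure D3:**
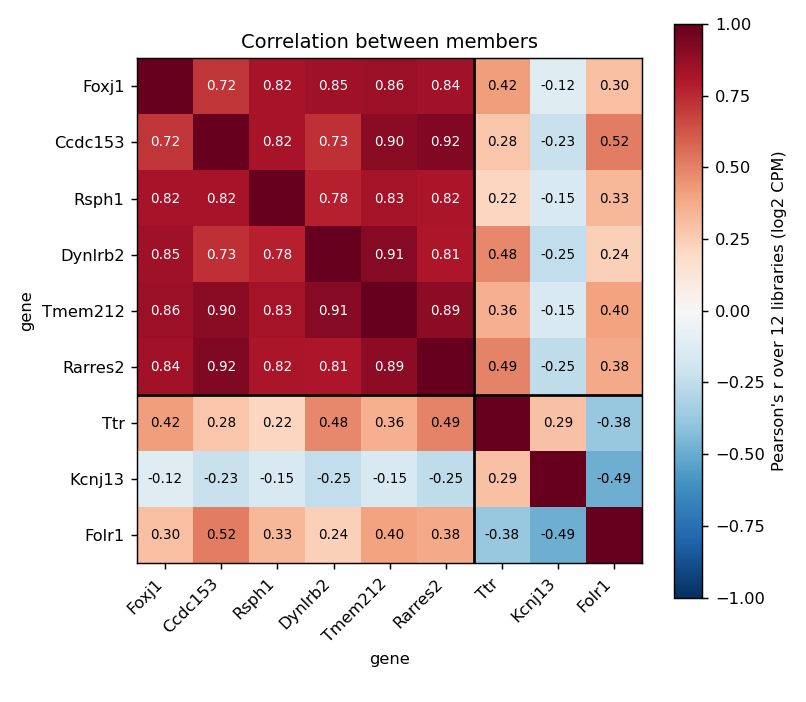
Pearson's r between members over 12 libraries (colour and number, log2 CPM), ependymal genes before choroid plexus genes on both axes, divided by black lines. The ependymal block is between 0.72 and 0.92, and the choroid plexus block holds no r above 0.29.

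The question of the series was how expression differs 12 and 7 weeks after fibrils. For synuclein against saline at 12 weeks, no gene of 17380 tested was called (0%), and 5.57% had an unadjusted p under 0.05 in edgeR's quasi-likelihood test. All 6 ependymal genes overlapped between the treatments, against 4.01% of all genes with non-overlapping groups higher in synuclein and 6.67% lower. Their log2 folds had a median of 0.75, between -0.13 for Foxj1 and 0.92 ± 0.94 (SE) for Ccdc153, with edgeR adjusted p between 0.925 and 0.999. DESeq2 and limma-voom also called none of the 6. Without the 2 rich libraries, 1 per treatment and picked as the highest for all 6 genes, all 6 folds were below 0. Their median was -1.46, and the edgeR adjusted p lay between 0.563 and 0.8002. All 6 folds were also below 0 in limma-voom and on both log2(FPKM) scales. The sign of the ependymal difference between treatments at 12 weeks therefore turned with the libraries kept and with the method.

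Kcnj13 was the only member whose groups did not overlap at 12 weeks, where 6.67% of all genes did not overlap and were lower in synuclein. At an unadjusted p under 0.05 in edgeR the share of all genes was 5.57%. A single member at such shares is not read as a result. Kcnj13 averaged 2.16 ± 2.64 CPM in synuclein libraries and 12.0 ± 4.28 CPM in saline libraries (SD, n = 3 each). Its log2 fold was -2.46 ± 0.97 (SE), with an edgeR unadjusted p of 0.0213 and an adjusted p of 0.887. Without the 2 rich libraries it was -1.87, with an adjusted p of 0.595. Ttr had a log2 fold of -1.94 ± 1.22 (adjusted p = 0.846 in edgeR) and Folr1 of 1.78 ± 0.98 (adjusted p = 0.902 in edgeR). The Folr1 fold was -0.38 without the 2 rich libraries.

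For synuclein against saline at 7 weeks no gene was called either (0%), and 1.64% of all genes had an unadjusted p under 0.05 in edgeR. The ependymal folds lay between 0.36 for Ccdc153 and 1.55 ± 1.14 (SE) for Rsph1, with a median of 0.88, all with an edgeR adjusted p of about 1. Without synuclein replicate 3 at 7 weeks the median was -0.0052, with 4 of the 6 folds below 0. Kcnj13 was at -0.91 ± 0.91, Folr1 at -0.64 ± 0.98 and Ttr at 1.39 ± 1.24 on the log2 scale. All 9 members overlapped, where 4.7% of genes did not overlap and were higher and 3.75% lower. Synuclein replicate 3 was the highest library at 7 weeks for all 6 ependymal genes and for Ttr. That library also had the highest summed level of 10 microglial genes of all 12, 589.7 CPM, and whether this had a part in the values was not tested.

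The difference of the synuclein effect, 12 minus 7 weeks, had a median of -0.53 over the ependymal genes on the log2 scale. No gene was called (0%), and 4.49% had an unadjusted p under 0.05 in edgeR. The largest member differences were -3.33 ± 1.74 (SE) for Ttr, with an adjusted p of 0.916, and 2.42 ± 1.38 for Folr1, with an adjusted p of 0.952 in edgeR. Without the 2 rich libraries the ependymal median was -2.68 and the Folr1 difference 0.28. Leaving out 1 library at a time put the ependymal median between -3.78, without synuclein replicate 1 at 12 weeks, and 0.84, without saline replicate 2 at 12 weeks. It was also above 0 without synuclein replicate 2 at 12 weeks or synuclein replicate 3 at 7 weeks.

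For 12 against 7 weeks over both treatments the median ependymal log2 fold was 2.54, beside 0.75 at 12 weeks and 0.88 at 7 weeks for synuclein against saline. The difference between these medians was not tested, and no single fold passed the threshold. Over both treatments, Tmem212 averaged 29.5 ± 42.1 CPM at 12 weeks and 1.44 ± 1.06 CPM at 7 weeks (SD, n = 6 each), a log2 fold of 4.32 ± 1.09 (SE). Its edgeR unadjusted p was 0.0009 and its adjusted p 0.0752. Rarres2 averaged 59.1 ± 84.9 CPM at 12 weeks and 5.54 ± 7.57 CPM at 7 weeks, a log2 fold of 3.51 ± 0.88 with an adjusted p of 0.0747 in edgeR. Ccdc153 followed at 2.46 ± 0.72 (adjusted p = 0.140 in edgeR). Dynlrb2, Rsph1 and Foxj1 had log2 folds of 2.61, 2.28 and 1.998 with adjusted p between 0.253 and 0.400 in edgeR.

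None of the 8 members tested was called in that comparison, against 0.834% of all genes, 94 higher and 51 lower. All 8 overlapped between the times, where 0.558% of all genes did not and were higher at 12 weeks. All 6 ependymal genes had an unadjusted p under 0.05, as did 4.53% of all genes in the same direction. Without synuclein replicate 1 at 12 weeks 1 of the 6 did, without both rich libraries 0 did, and in limma-voom 2 did. At 7 weeks Foxj1 reached at most 2.29 CPM and Tmem212 at most 2.86 CPM. Both passed the filter on low counts only with their 12-week libraries. Their part in such counts, here and within each treatment below, is therefore partly fixed by the filter. DESeq2 called Ccdc153, Tmem212 and Rarres2 with adjusted p of 0.0128, 0.0485 and 0.0255, and limma-voom called none. The edgeR fit without the filter on low counts called Tmem212 and Rarres2, with adjusted p of 0.0261 and 0.0247. Synuclein replicate 2 at 12 weeks was the lowest in summed ependymal CPM and had the fewest genes with a fragment. Leaving it out gave adjusted p under 0.05 for Ccdc153, Rsph1, Tmem212 and Rarres2 in edgeR. Leaving out synuclein replicate 3 at 12 weeks did so for Tmem212 and Rarres2, and leaving out synuclein replicate 3 at 7 weeks for Rarres2. In the same contrast 7 of 10 oligodendrocyte genes were called higher, and 3 of 14 dopaminergic and 2 of 10 neuronal genes were called lower. By sign alone, 10 of 10 oligodendrocyte folds were above 0, and 13 of 14 dopaminergic and 10 of 10 neuronal folds were below 0. Leaving out 1 library at a time moved the 3 counts of called genes to 3 to 10, 0 to 5 and 1 to 3. Whether the makeup of the sorted cells had a part in the ependymal values was not tested.

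Without both rich libraries the median ependymal log2 fold, 2.54 with all 12, was 0.71. The folds lay between -0.72 for Dynlrb2 and 0.99 for Foxj1, with adjusted p between 0.734 and 0.936 in edgeR, and 83 genes were called. Without synuclein replicate 1 at 12 weeks alone, the median was 1.18, with 38 genes called.

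Within saline, 5 of the 6 ependymal genes were higher in every library at 12 weeks than in every library at 7 weeks, where 8.34% of all genes were. Dynlrb2 overlapped, with 3.19 CPM in saline replicate 1 at 12 weeks and 3.46 CPM in saline replicate 2 at 7 weeks. The log2 folds lay between 2.18 ± 1.02 (SE) for Ccdc153 and 4.31 ± 1.56 for Tmem212. Of the 6, 5 had an unadjusted p under 0.05 in edgeR, as did 3.49% of all genes in that direction, and the adjusted p lay between 0.437 and 0.724, with no gene called (0%). That count of 5 was 0 without saline replicate 2 at 12 weeks, 3 without saline replicate 2 at 7 weeks and 2 without saline replicate 3 at 7 weeks. It was 2 without both rich libraries, 3 in DESeq2 and 1 in limma-voom. Without the 2 rich libraries all 6 folds stayed above 0, between 1.47 for Dynlrb2 and 2.91 for Tmem212, with adjusted p between 0.597 and 0.910. Saline replicates 1 and 3 at 12 weeks summed to 59.7 and 39.6 CPM, against at most 14.7 CPM in saline libraries at 7 weeks.

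Within synuclein, every ependymal gene overlapped between the times, where 5.13% of all genes did not overlap and were higher at 12 weeks. Their log2 folds had a median of 2.38, between 1.74 for Foxj1 and 4.33 for Tmem212, with edgeR adjusted p between 0.511 and 0.797 and no gene called (0%). Of the 6, 3 had an unadjusted p under 0.05, as did 3.31% of all genes in that direction. The count of 3 was 0 without synuclein replicate 1 at 12 weeks, 6 without synuclein replicate 2 at 12 weeks and 1 without synuclein replicate 2 at 7 weeks. Without synuclein replicate 1 at 12 weeks the median was -0.60, a fall fixed in direction because that library was the highest for all 6. Replicates 2 and 3 at 12 weeks summed to 8.23 and 26.1 CPM, inside the range of 10.02 to 51.7 CPM of synuclein libraries at 7 weeks or below it.

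The choroid plexus genes had no common direction between the times. Over both treatments Kcnj13 was at -0.85 ± 0.65, Folr1 at 0.81 ± 0.69 and Ttr at 0.51 ± 0.87 on the log2 scale (SE), with edgeR adjusted p between 0.792 and 0.963. Within saline Kcnj13 was at -0.07, and within synuclein at -1.62 ± 0.96 with an adjusted p of 0.755 in edgeR. Within synuclein Folr1 was at 2.02 ± 0.99 (adjusted p = 0.674 in edgeR), a value that was 0.32 without the 2 rich libraries.

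**Figure D4:**
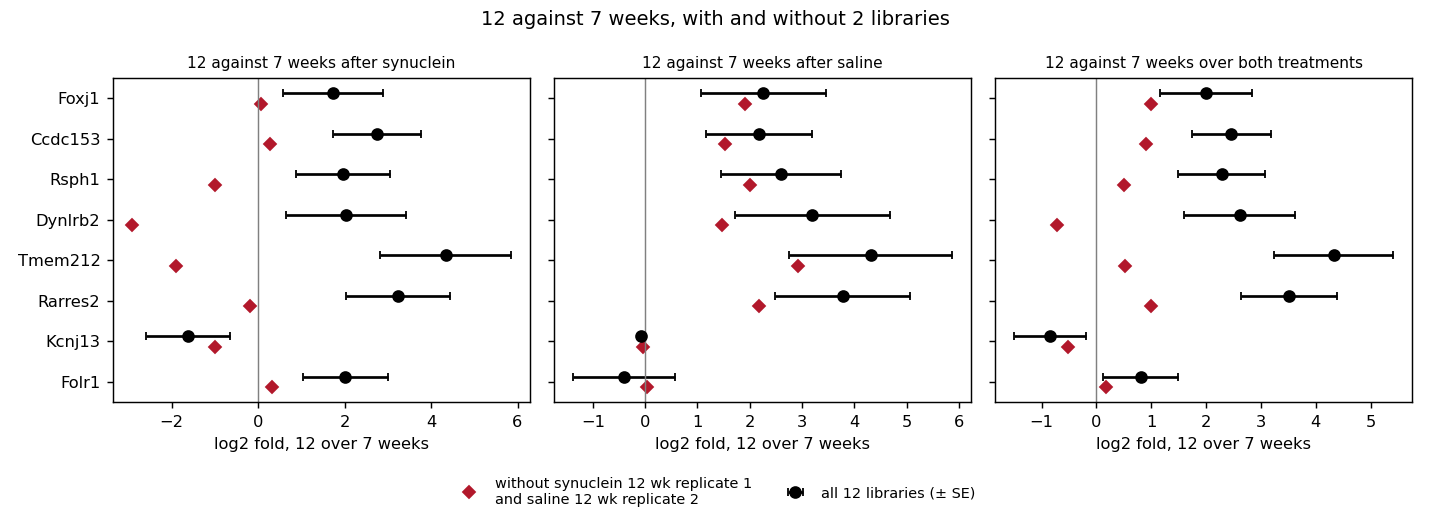
Log2 folds of 12 over 7 weeks (horizontal axes) for the 8 tested members after synuclein, after saline and over both treatments, with all 12 libraries (black, bars are SE; Kcnj13 after saline has none) and without the 2 rich libraries (red). After synuclein 4 of the 6 ependymal folds fall below 0 without the 2 libraries, and after saline all 6 stay above 0. The 2 libraries were left out for being the highest for all 6 ependymal genes.

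The wider ciliary programme was read from 4 lists with 115 entries, of which 105 matched and 92 were tested. They held regulators of ciliogenesis, axonemal dynein arms, radial spokes with the central pair, and genes of the doublets and of ciliary traffic. None was called for 12 against 7 weeks over both treatments in edgeR, and the median log2 fold was 0.64, against -0.03 for all genes. The doublet list had a median of 1.39 with 39 of 41 above 0, the spoke list 0.62 with 11 of 12, the dynein list 0.15 with 18 of 26 and the regulators 0.03 with 8 of 13. At an unadjusted p under 0.05 in edgeR, 21 of the 92 were higher and 1 lower, against 4.53% and 5.29% of all genes. Within saline 8 of the 92 were higher and 1 lower, and within synuclein 8 were higher and 2 lower. The shares of all genes that were higher were 3.49% within saline and 3.31% within synuclein. Within synuclein the dynein list had a median of -0.12, with 12 above and 14 below 0. The lists were chosen with earlier results of these data known.

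Synuclein replicate 1 at 12 weeks was the highest library for 51 of the 92 tested ciliary genes (55.4%), and for 12% of all genes tested. By list it was highest for 31 of 41 tested genes on the doublet list, 9 of 12 spoke genes, 7 of 26 dynein genes and 4 of 13 regulators. For 36 of the 92 tested ciliary genes it and saline replicate 2 were the 2 highest libraries, as they were for 2.93% of all genes. Mlf1, which stood on the list with the doublet genes, had 66.0 CPM in synuclein replicate 1 and 30.8 CPM in saline replicate 2. Elsewhere it had at most 4.35 CPM.

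By mean FPKM, the leading regulators were the cell-cycle factors E2f4 (19.4 FPKM) and E2f5 (16.9 FPKM), which many cells use, and Mcidas (4.96 FPKM), which starts multiciliation. Their log2 folds over time were 0.03, -0.07 and 0.21, each with an adjusted p above 0.95 in edgeR. Of the spoke genes, Lrrc23 had a log2 fold of 2.27 ± 0.85 (SE; adjusted p = 0.311 in edgeR), Rsph4a one of 1.04 ± 0.54 and Rsph9 one of 0.34 ± 0.63. Tppp3, a tubulin-binding protein also made by oligodendrocytes, averaged 353 FPKM with a log2 fold of 0.34 ± 0.21, Odf3b one of 0.74 ± 0.37 and Morn2 one of 0.19 ± 0.35. The dynein list also held Dynlrb1, the cytoplasmic light chain named above, which is therefore among the ciliary counts. Dynlrb1, Dnal4 and Dnaaf2 had log2 folds of -0.29, -0.44 and -0.07.

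Of 40 further choroid plexus genes tested, 2 passed the test and rose at 12 weeks over both treatments, against 0.541% of all genes. They were Enpp2, which makes lysophosphatidic acid and is also an oligodendrocyte gene (log2 fold 0.93 ± 0.20, adjusted p = 0.0376 in edgeR), and the chloride cotransporter gene Slc12a2 (0.86 ± 0.20, adjusted p = 0.0474 in edgeR). Both calls were lost without any 1 of synuclein replicate 1 or saline replicate 1 or 3 at 12 weeks, any synuclein library at 7 weeks, or saline replicate 2 or 3 at 7 weeks. Over all 12 such fits the edgeR adjusted p lay between 0.00855 and 0.0956 for Enpp2 and between 0.0316 and 0.114 for Slc12a2. Without synuclein replicates 1 and 2 at 12 weeks no gene at all was called, and the adjusted p were 0.373 for Enpp2 and 0.348 for Slc12a2. Without the 2 rich libraries they were 0.0208 for Enpp2 and 0.0989 for Slc12a2 in edgeR. The list's median was 0.00, with 20 above and 20 below 0. The transporters Slco1c1 and Slc31a1 were at -0.42 ± 0.20 and -0.70 ± 0.22 and did not pass. Of 18 further ependymal and tanycyte genes none was called, and the median log2 fold was 0.12, with 10 above and 8 below 0. At an unadjusted p under 0.05 in edgeR, 5 were higher and 2 lower, against 4.53% and 5.29% of all genes. The 3 highest by mean FPKM all had folds below 0. The intermediate filament gene Vim was at -0.12 ± 0.22, the stem cell marker Prom1 at -0.50 ± 0.19 and the imprinted gene Nnat at -0.20 ± 0.39. Of 13 genes for partners of the secreted and transport members none was called; the retinol uptake receptor gene Stra6 was at -0.68 ± 0.35, the chemerin-binding receptor gene Ccrl2 at -0.09 ± 0.40 and the glial channel gene Kcnj10 at 1.07 ± 0.27 (adjusted p = 0.0727 in edgeR).

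The genes most like the ependymal members were sought among 13764 genes with a mean of at least 5 CPM, by Pearson's r with the mean log2 level of the 6 over 12 libraries. The closest were Calml4 (r = 0.93), 2410004P03Rik (r = 0.93), Mlf1 (r = 0.93), Lrrc23 (r = 0.93), Psmc3ip (r = 0.91), 1110017D15Rik (r = 0.91), Aebp1 (r = 0.91) and 1700012B09Rik (r = 0.90). In the 10 libraries without the 2 rich ones, which are also the 2 farthest from the median, their r lay between 0.63 for 1700012B09Rik and 0.88 for 2410004P03Rik. For the choroid plexus members the closest were Zfp93 (r = 0.88), Neb (r = 0.85) and Zfp2 (r = 0.84). Of the ependymal neighbours, Mlf1, Lrrc23, 1110017D15Rik and 1700012B09Rik stood on the ciliary lists and Calml4 on the choroid plexus list, and none of these 3 choroid plexus neighbours stood on any list.

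Markers of other cells were compared in the 2 rich libraries. The 10 meningeal fibroblast genes summed to 114.2 CPM in synuclein replicate 1, the highest of all 12, and to 39.0 CPM in saline replicate 2, where the other 10 libraries lay between 19.5 and 77.4 CPM. The 10 astrocyte genes summed to 394 CPM and 411 CPM in the same order, against 245 to 509 CPM elsewhere. The 10 oligodendrocyte genes summed to 38463 CPM and 25236 CPM, against 15920 to 43199 CPM. Sums of the 10 endothelial genes were 8841 CPM and 10911 CPM, against 8185 to 19765 CPM. The 10 microglial genes were lowest in synuclein replicate 1, at 75.9 CPM, with 106 CPM in saline replicate 2 and 87.5 to 590 CPM elsewhere. The 14 dopaminergic genes summed to 808 CPM and 796 CPM, inside the range of 683 to 3006 CPM elsewhere. Apart from the fibroblast and microglial sums of synuclein replicate 1, these sums lay inside the range of the other 10 libraries, and their part in the ependymal values was not tested.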

How the data were processed

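Libraries were made from sorted cells with the SMARTer Ultra-Low kit, which amplifies cDNA, per the labels' protocols. The authors used TopHat2 2.0.13, Bowtie2 2.2.3 and Cufflinks 2.2.1, per the submitters' processing notes; the genome build and the use of strand are not given in the sources used here. For every gene and library the authors gave 1 estimated count and 1 FPKM value. Their estimated counts carry a library factor between 0.685 and 1.30: divided by it, 98.9% to 99.2% were whole within 0.02 fragments, which gave the fragments quoted. Coordinates fit GENCODE M21 for GRCm38.

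After rounding, these estimated counts entered the quasi-likelihood test of edgeR 4.0.16 (R 4.3.3), with filterByExpr keeping 17380 genes, TMM scaling and a mean for each of the 4 groups. The fit left 8 residual degrees of freedom, and the coefficient of variation common to all genes was 46.6%. The Benjamini-Hochberg adjustment ran over every gene tested, and calls were made at 0.05. FPKM deposited by the authors served for levels between genes and in alternatives on log2(FPKM + 0.1) and log2(FPKM + 1), fitted in limma 3.58.1; DESeq2 1.42.0, limma-voom, other scalings, no filter and leaving out libraries were further alternatives. Correlations used log2 CPM with a prior count of 2. Of 278 list entries, 267 matched. Genes named from the lists were the called ones and the 3 highest by mean FPKM; neighbours were the 8 highest r, of which those for the choroid plexus genes are given in part. The members, the lists and the alternatives were chosen with earlier results of these data known.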

Additional observations from a re-analysis of the deposited data

Results flagged for a closer look

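Each member was checked for a library far from the other 5 at the same time, treatments pooled, by Dixon's ratio of the gap to the nearest library over the whole range, against its usual critical value. Of 18 checks, 7 passed. The checks share libraries and correlated genes, so this count cannot be set against the usual 1 in 20 of a single check. At 12 weeks, synuclein replicate 1 stood above the rest for Ccdc153 (68.3 CPM), Rsph1 (76.2 CPM) and Folr1 (26.5 CPM), and saline replicate 2 for Ttr (10.54 CPM). At 7 weeks, synuclein replicate 3 stood above the rest for Rsph1 (12.9 CPM), Rarres2 (20.9 CPM) and Ttr (6.29 CPM).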

How the results depend on the processing

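The log2 folds of the 8 tested members, their medians and the counts of genes called were recomputed under 23 other settings, 12 of which left out 1 library each. No member passed the threshold in the 6 comparisons with the settings of the report. The ependymal medians for 12 against 7 weeks stayed above 0 under all 23 settings after saline (1.95 to 3.51) and over both treatments (0.71 to 2.89). Every other ependymal median changed sign under at least 1 setting. Given here, on the log2 scale, are folds and medians that changed sign, medians that moved by more than the spread between replicates and counts that moved by more than 1.5 times; unless a left-out library shows the cause, the cause was not tested.

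With DESeq2, synuclein against saline at 12 weeks had 12 genes called. Under that setting, 12 against 7 weeks after saline had 173 genes called. There 12 against 7 weeks after synuclein had 59 genes called. That left 12 against 7 weeks over both treatments with 449 genes called. With limma-voom, synuclein against saline at 7 weeks had -0.045 for Ccdc153 and -0.28 for Tmem212. For synuclein against saline at 12 weeks it gave a median of -1.38 over the ependymal genes, a median of -1.05 over the choroid plexus genes, -0.15 for Ccdc153, -1.20 for Rsph1, -2.29 for Dynlrb2, -2.76 for Tmem212 and -0.21 for Rarres2. It also gave, for the difference of the synuclein effect, a median of -2.30 over the ependymal genes, a median of -0.21 over the choroid plexus genes, -0.11 for Ccdc153 and -2.48 for Tmem212. Under that setting, 12 against 7 weeks after synuclein had a median of 0.69 over the ependymal genes, a median of -0.45 over the choroid plexus genes, -0.087 for Rsph1 and -0.88 for Dynlrb2. On log2(FPKM + 0.1), synuclein against saline at 7 weeks had -0.17 for Ccdc153 and -0.69 for Tmem212. There synuclein against saline at 12 weeks had a median of -1.26 over the ependymal genes, a median of -1.04 over the choroid plexus genes, -0.13 for Ccdc153, -1.27 for Rsph1, -2.92 for Dynlrb2, -3.28 for Tmem212 and -0.17 for Rarres2, with 2 genes called. That left the difference of the synuclein effect with a median of -0.21 over the choroid plexus genes and -2.59 for Tmem212, with 1 gene called. For 12 against 7 weeks after saline it gave 2 genes called. It also gave, for 12 against 7 weeks after synuclein, a median of -0.47 over the choroid plexus genes, -0.14 for Rsph1 and -1.47 for Dynlrb2. Under that setting, 12 against 7 weeks over both treatments had 1 gene called. On log2(FPKM + 1), synuclein against saline at 12 weeks had a median of -0.52 over the ependymal genes, -0.064 for Ccdc153, -0.67 for Rsph1, -1.76 for Dynlrb2, -1.999 for Tmem212 and -0.14 for Rarres2, with 1 gene called. There the difference of the synuclein effect had -0.076 for Ccdc153 and -2.08 for Tmem212, with 1 gene called. That left 12 against 7 weeks after saline with 1 gene called. For 12 against 7 weeks after synuclein it gave a median of -0.032 over the choroid plexus genes and -0.39 for Dynlrb2. It also gave, for 12 against 7 weeks over both treatments, 5 genes called. Without the filter, 12 against 7 weeks after saline had 7 genes called. Scaled by totals only, synuclein against saline at 12 weeks had -0.032 for Dynlrb2. Under that setting, the difference of the synuclein effect had -0.13 for Tmem212. Without the 2 rich libraries, synuclein against saline at 12 weeks had a median of -1.46 over the ependymal genes, a median of -1.12 over the choroid plexus genes, -0.90 for Ccdc153, -1.46 for Rsph1, -3.21 for Dynlrb2, -4.25 for Tmem212, -0.93 for Rarres2 and -0.38 for Folr1. Under that setting, the difference of the synuclein effect had a median of -2.68 over the ependymal genes, a median of -0.33 over the choroid plexus genes, -1.25 for Ccdc153 and -4.80 for Tmem212. There 12 against 7 weeks after saline had 0.035 for Folr1, with 20 genes called. That left 12 against 7 weeks after synuclein with a median of -0.60 over the ependymal genes, a median of -0.34 over the choroid plexus genes, -1.01 for Rsph1, -2.91 for Dynlrb2, -1.89 for Tmem212 and -0.19 for Rarres2. For 12 against 7 weeks over both treatments it gave a median of 0.71 over the ependymal genes and -0.72 for Dynlrb2, with 83 genes called. Without synuclein replicates 1 and 2 at 12 weeks, synuclein against saline at 12 weeks had a median of -1.70 over the ependymal genes, -1.24 for Ccdc153, -1.16 for Rsph1, -4.01 for Dynlrb2, -4.72 for Tmem212, -2.16 for Rarres2 and -0.016 for Folr1. It also gave, for the difference of the synuclein effect, a median of -3.15 over the ependymal genes, -1.60 for Ccdc153 and -5.28 for Tmem212. Under that setting, 12 against 7 weeks after saline had 14 genes called. There 12 against 7 weeks after synuclein had a median of 0.03 over the ependymal genes, a median of -0.081 over the choroid plexus genes, -0.11 for Rsph1, -2.01 for Dynlrb2 and -0.98 for Tmem212. That left 12 against 7 weeks over both treatments with -0.096 for Folr1, with 0 genes called.

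Over 18 pairs of same-numbered libraries the correlation of their deviations from the group means lay between -0.06 and 0.11 (median 0.04). Pairs with different numbers lay between -0.16 and 0.11, and 5 of 12 libraries correlated best with their own number. Whether numbers share a deviation was not tested. The labels do not say that numbers pair samples. With the replicate block, synuclein against saline at 12 weeks had a median of -0.21 over the ependymal genes, -0.0073 for Ccdc153, -0.26 for Rsph1, -0.18 for Dynlrb2 and -0.70 for Tmem212. There the difference of the synuclein effect had -0.59 for Ccdc153 and -1.36 for Tmem212. That left 12 against 7 weeks after saline with 0.028 for Kcnj13, with 34 genes called. For 12 against 7 weeks after synuclein it gave a median of -0.032 over the choroid plexus genes. It also gave, for 12 against 7 weeks over both treatments, 246 genes called.

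Leaving out 1 library at a time gave these lowest and highest values. The count over both treatments was 24 to 38 without any 1 of synuclein replicate 1 or saline replicate 1 or 3 at 12 weeks, or synuclein replicate 1 or 2 or saline replicate 2 or 3 at 7 weeks, and 128 to 214 without any 1 of the other 5. For synuclein against saline at 7 weeks the values were Foxj1 -0.043 to 1.03, genes called 0 to 1, the ependymal median -0.0052 to 1.36, Ccdc153 -0.66 to 1.03, Tmem212 -0.0034 to 1.15 and Rarres2 -0.78 to 1.93. For synuclein against saline at 12 weeks the values were the choroid plexus median -0.92 to 0.25, Foxj1 -1.79 to 0.48, Dynlrb2 -4.94 to 1.76, the ependymal median -2.30 to 1.67, Ccdc153 -1.54 to 1.59, Rsph1 -2.06 to 1.53, Tmem212 -5.65 to 1.998, Rarres2 -2.53 to 2.52 and genes called 0 to 1. For the difference of the synuclein effect the values were Tmem212 -6.20 to 1.45, the ependymal median -3.78 to 0.84, Dynlrb2 -6.11 to 0.59, Rarres2 -3.96 to 1.67, Ccdc153 -1.89 to 1.59, the choroid plexus median -0.14 to 1.10, Foxj1 -2.18 to 0.093 and Rsph1 -3.61 to 0.12. For time after saline the values were genes called 0 to 9, Folr1 -1.25 to 0.034, Kcnj13 -0.36 to 0.44 and the choroid plexus median -0.79 to 0.098. For time after synuclein the values were the ependymal median -0.60 to 3.25, the choroid plexus median -0.38 to 0.85, Rsph1 -1.01 to 2.73, Dynlrb2 -2.91 to 2.64, Tmem212 -1.89 to 4.94, Rarres2 -0.19 to 5.46 and genes called 0 to 2. For time over both treatments the values were genes called 24 to 214, the choroid plexus median -0.31 to 0.30 and Folr1 -0.046 to 1.04.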
